A study of Mus musculus with 12 samples.

Results

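Contacts between a promoter and a distal bin more than 1 Mb away on the same chromosome were described in blood stem cells of the fetal and the adult mouse. Distance was measured between midpoints, of the captured fragment and of the bin, and both the fetal and the adult count had to be under 1000. The rule kept 559 of the 89545 listed contacts, of which 88475 lay within a chromosome. They belonged to 241 of 3781 promoter entries, a promoter entry being a captured fragment in 1 batch, and to 225 genes. The closest comparison is with the 87113 contacts at 20 kb to 1 Mb under the same limit on counts.

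Promoter Capture-C cross-links chromatin, cuts it with DpnII at GATC, ligates the ends that lie together, and pulls out the products of chosen promoters with probes. The study compared haematopoietic stem cells (HSCs) of B6129SF1 mice, sorted as Lin-Sca1+cKit+CD135-, from the liver at embryonic day 14.5 and from the bone marrow at 6 to 8 weeks of age. Each population gave 4 libraries, 2 in each of 2 batches that captured nearly separate promoter sets, and the other 4 of the 12 libraries, from the HPC7 progenitor line, were not analysed here. That gate also holds multipotent progenitors, so the populations are enriched for stem cells rather than pure, and whether animals were pooled is not given in the sources used here.

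The deposited counts and scores are 1 value per contact, population and batch, and FPKM is 1 value per promoter and population. No value here has a replicate error, and no difference between fetal and adult cells could be tested against the spread between libraries. Intervals in brackets are exact Clopper-Pearson 95% intervals, or for medians the binomial 95% interval of the median. They cover counting error only, and neighbouring bins that share their source make them too tight. Listed counts within a chromosome and across chromosomes came to 1312829 fetal and 1098957 adult for the first batch, and the second batch held 2368080 and 2135161. All 6 captured stem cell marker genes of the 8 listed, Kit and Procr among them, had an FPKM of at least 1 in both populations. The lineage markers Itgam, Hbb-b1, Marco and C1qa had an FPKM between 1.16 and 9.97 in fetal HSCs. In adult HSCs the highest FPKM of these genes was 0.412. The part of other cells in the contacts was not tested.

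In mammalian nuclei most contacts of a promoter lie within its own domain and become rarer with distance. Contacts past a megabase are known for a few genes with remote enhancers, for regions held by Polycomb proteins, and for active promoters that lie in the same nuclear compartment. Polycomb proteins keep developmental genes silent, and a bivalent promoter carries their mark together with an activating mark. A ligation count can also come from a sequence with a near-identical copy elsewhere on the chromosome, because reads of either copy can be placed at the other.

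The windows below give the starts of the genes that the results return to: the Hoxa genes, whose shared distal region held the most contacts of any locus, a weakly expressed gene with a run of distal bins, and a pair of kinesin genes joined by the strongest signal at nearly 7 Mb. Each is 300 bases long, 250 before and 50 after a gene start, from RefSeq on GRCm38.p6, in the direction of transcription. Capitals mark GATC, the DpnII site, which reads the same on both strands. Hoxa9 is the window chr6:52227321-52227620 on the minus strand, Hoxa10 is chr6:52240805-52241104 on the minus strand, and Igfbp3 is chr11:7213874-7214173 on the minus strand. Kifc1 is chr17:33890584-33890883 on the minus strand, and Kifc5b is chr17:26916841-26917140 on the plus strand.
Hoxa9: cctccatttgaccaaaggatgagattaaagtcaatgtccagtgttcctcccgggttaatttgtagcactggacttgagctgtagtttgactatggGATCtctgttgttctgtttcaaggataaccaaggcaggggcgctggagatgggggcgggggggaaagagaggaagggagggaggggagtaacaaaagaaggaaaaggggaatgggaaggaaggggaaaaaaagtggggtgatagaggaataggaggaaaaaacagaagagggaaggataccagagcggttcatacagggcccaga
Hoxa10: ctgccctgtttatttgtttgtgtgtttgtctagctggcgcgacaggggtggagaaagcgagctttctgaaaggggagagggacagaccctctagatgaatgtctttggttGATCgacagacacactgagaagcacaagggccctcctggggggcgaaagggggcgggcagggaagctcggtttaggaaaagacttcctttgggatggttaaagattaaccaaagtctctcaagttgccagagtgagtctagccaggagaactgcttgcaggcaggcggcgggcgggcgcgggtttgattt
Igfbp3: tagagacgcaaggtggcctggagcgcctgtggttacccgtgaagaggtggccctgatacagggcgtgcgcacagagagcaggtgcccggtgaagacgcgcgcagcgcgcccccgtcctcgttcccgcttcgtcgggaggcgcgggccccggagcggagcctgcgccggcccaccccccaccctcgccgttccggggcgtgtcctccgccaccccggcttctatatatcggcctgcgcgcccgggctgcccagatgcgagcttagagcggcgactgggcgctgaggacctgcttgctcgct
Kifc1: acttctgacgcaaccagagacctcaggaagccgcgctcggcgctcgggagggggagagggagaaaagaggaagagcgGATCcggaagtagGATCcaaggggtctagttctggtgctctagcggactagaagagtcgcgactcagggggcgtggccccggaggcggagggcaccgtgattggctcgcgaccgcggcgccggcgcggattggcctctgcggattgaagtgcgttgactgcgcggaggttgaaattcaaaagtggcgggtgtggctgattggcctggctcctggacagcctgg
Kifc5b: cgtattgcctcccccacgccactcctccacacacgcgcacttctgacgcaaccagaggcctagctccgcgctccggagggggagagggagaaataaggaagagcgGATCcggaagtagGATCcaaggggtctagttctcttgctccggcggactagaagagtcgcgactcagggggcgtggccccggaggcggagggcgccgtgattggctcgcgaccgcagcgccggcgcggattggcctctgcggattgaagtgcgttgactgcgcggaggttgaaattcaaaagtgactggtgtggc

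A window was found for 181 of the 225 genes, 13 of them through a synonym, which gave 180 different windows. GATC occurred in 90 of these 180 (50%) and in 48.0% of the 27025 RefSeq promoter windows. The CG dinucleotide, frequent at the starts of broadly expressed genes, occurred a median of 21.5 times per window in the 180, 20 times in the 2472 captured genes matched by symbol, and 7 times in all 27025. The Hoxa9 window held 4 CG, Hoxa10 12, Kifc1 28, Kifc5b 30 and Igfbp3 37. The Kifc1 and Kifc5b windows were the most alike of the pairs compared: they share an identical run of 68 bases, and 248 of 262 aligned bases (94.7%) are the same. For 35 other gene pairs joined promoter to promoter beyond 1 Mb the longest identical run had a median of 9 bases, and the longest was 30, between the histocompatibility genes H2-K1 and H2-Q4. The Igfbp3 window holds no GATC, which says only that the site is not in this window.

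Distances and promoters. The first batch held 481 of the contacts, at 192 of its 1952 promoters (9.84%), and the second held 78, at 49 of 1829 (2.68%). The second batch was called at a stricter score: the lowest score of a called contact, as −log10 of a p-value, was 1.3 in the first batch and 2.0 in the second. Of all 559 contacts, 169 (30.2%) lay at 1 to 1.1 Mb. A further 34 lay at 3 to 10 Mb and 44 beyond 10 Mb. The median distance was 1375 kb (first batch) and 1940 kb (second batch). The longest were those of Rps9, a protein of the small ribosomal subunit, at 144.7 Mb, and of Get4, which helps to insert membrane proteins, at 117.8 Mb. Just inside the limit stood Gosr2 at 1000.2 kb with 7 fetal and 2 adult counts, and just outside it Gen1 at 998.8 kb with 22 fetal and 7 adult counts.

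Most promoters had a single such contact: 116 of 192 in the first batch and 35 of 49 in the second. A few had many. Sp110 had 36, the Myc fragments Myc_1 and Myc 32 and 18, Hmgn1 18, Igfbp3 16, and Hoxa10 and Hoxa3_1 10 each. The 10 richest promoters of the first batch held 163 of 481 contacts (33.9%). When contacts were joined whose promoters lay within 100 kb of each other and whose distal bins did too, the 559 contacts formed 276 loci. Of these, 221 held a single contact and 14 held 5 or more, and the 14 together held 231 contacts (41.3%). In 7 loci the contacts came from more than 1 gene. Promoters farther apart that met the same bin, such as Zfp141 and Zfp788, were counted as separate loci.

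A called bin beyond 1 Mb had another listed bin of the same promoter within 5 kb in 44.3% of cases in the first batch (39.8 to 48.8%) and 35.9% in the second (25.3 to 47.6%). At 20 kb to 1 Mb the shares were 65.1% and 77.1%. Without the Myc, Hoxa, Sp110, Sp140, Hmgn1 and Igfbp3 promoters, a set chosen after the counts were seen, the first-batch share was 21.5%.

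First-batch calls beyond 1 Mb leaned to adult HSCs: 150 contacts were called in fetal HSCs alone (31.2%), 195 in adult HSCs alone (40.5%) and 136 in both (28.3%). Over all contacts within a chromosome in that batch, 39% were called in fetal cells alone, 35.7% in adult cells alone and 25.3% in both. In the second batch 29 were called in fetal HSCs alone (37.2%), 22 in adult HSCs alone (28.2%) and 27 in both (34.6%), against 34%, 29.3% and 36.7% over all contacts. Of the first-batch contacts called in 1 population, the fetal share was 43.5% (38.2 to 48.9%) beyond 1 Mb, 52.3% at 20 kb to 1 Mb and 52.6% at 20 kb to 1 Mb of the same promoters. For the second batch this share was 56.9% (42.2 to 70.7%) beyond 1 Mb and 53.7% nearer, and the interval holds the nearer share.

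The fetal share varied with distance. At 1 to 2 Mb in the first batch it was 39.1% (33.1 to 45.3%, 261 contacts called in 1 population). Nearer contacts had 56.8% at 500 kb to 1 Mb and 35.5% at 20 to 100 kb. Beyond 2 Mb it was 57.1% (45.9 to 67.9%, 84 contacts), but without the Sp100, Sp110, Sp140 and Hmgn1 promoters, left out after the counts were seen, it was 41.5% (28.1 to 55.9%, 22 of 53). The higher share beyond 2 Mb thus rested on those promoters, of which Sp110, Sp140 and Hmgn1 also have bins of over 1000 counts. Over all distances beyond 1 Mb, with a score 1 unit higher, it was 48.9% of 139 (40.4 to 57.5%). That interval holds the nearer share of 52.3%, which is at the original score. The nearer share was not computed at the higher score, so far and near are not compared at the same score. The lean was present without the promoters with many contacts: without the Myc, Hoxa, Sp110, Sp140, Hmgn1 and Igfbp3 promoters 96 contacts were fetal alone and 152 adult alone (38.7%, 32.6 to 45.1%).

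**Figure D1:**
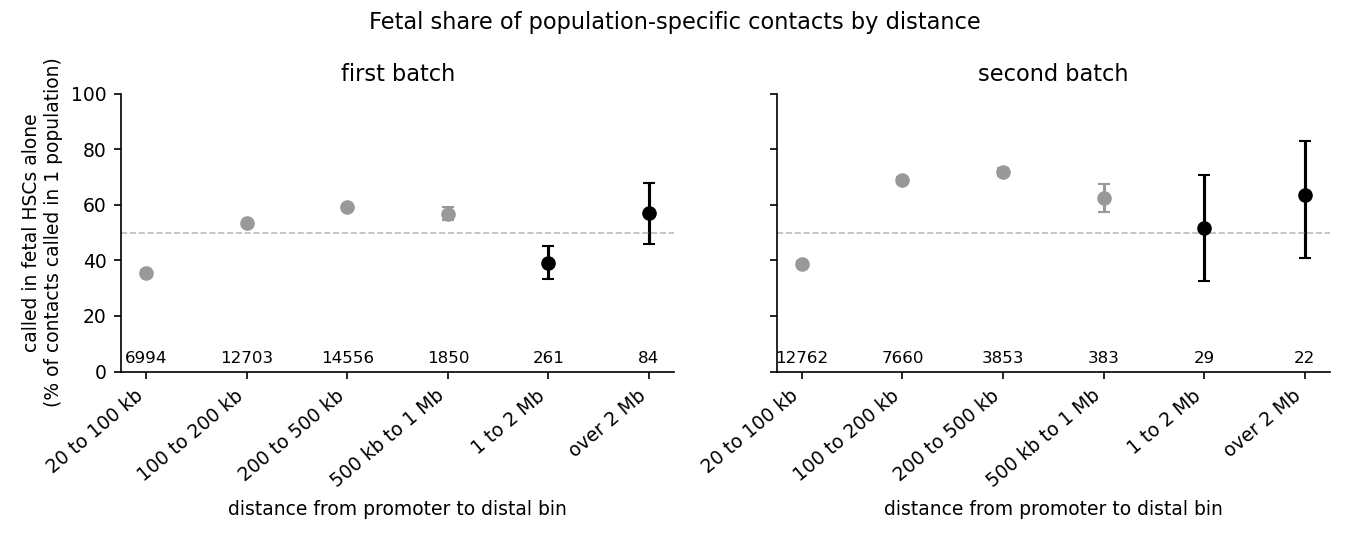
Share of contacts called in fetal HSCs alone among those called in 1 population (vertical axis, %) against distance from the promoter (horizontal axis), by batch, with exact 95% intervals. Black points are beyond 1 Mb and numbers give the contacts called in 1 population. In the first batch the point at 1 to 2 Mb stands at 39.1%, below the 56.8% at 500 kb to 1 Mb, and the point beyond 2 Mb at 57.1%, which is 41.5% without the Sp100, Sp110, Sp140 and Hmgn1 promoters.

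Most first-batch contacts had the higher count in adult HSCs, while the unscaled sum was higher in fetal HSCs. The median count of a first-batch contact was 8 in fetal and 8 in adult HSCs, while that of a second-batch contact was 23.5 and 26. The fetal count was the higher in 199 of 466 unequal contacts in the first batch (42.7%, 38.2 to 47.3%) and in 39 of 73 in the second (53.4%, 41.4 to 65.2%). The median log2 ratio of fetal to adult count, after adding 1 to each, was −0.21 in the first batch (−0.32 to −0.06), against 0.15 at 20 kb to 1 Mb. In the second it was 0.03 (−0.06 to 0.37), against 0.23 nearer. With counts divided by each population's total of listed counts within a chromosome, these medians were −0.42 and −0.12, so the second-batch direction depended on the scaling. The unscaled sums were higher in fetal HSCs, with 8120 fetal and 7516 adult counts for the first batch, while the second had 3680 and 3438. The ratios of fetal to adult sums, 1.08 and 1.07, were below the 1.09 and 1.14 of the contacts at 20 kb to 1 Mb. In the first batch this depended on a few promoters. Without those of Myc, Hoxa, Sp110, Sp140, Hmgn1 and Igfbp3, left out after the counts were seen, the ratio was 1.14, above the nearer 1.09. Flt4 alone gave 1235 of the fetal and 668 of the adult counts of the first batch. The direction of the first-batch median was opposite, at 0.16, when contacts from 500 kb on were taken in.

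**Figure D2:**
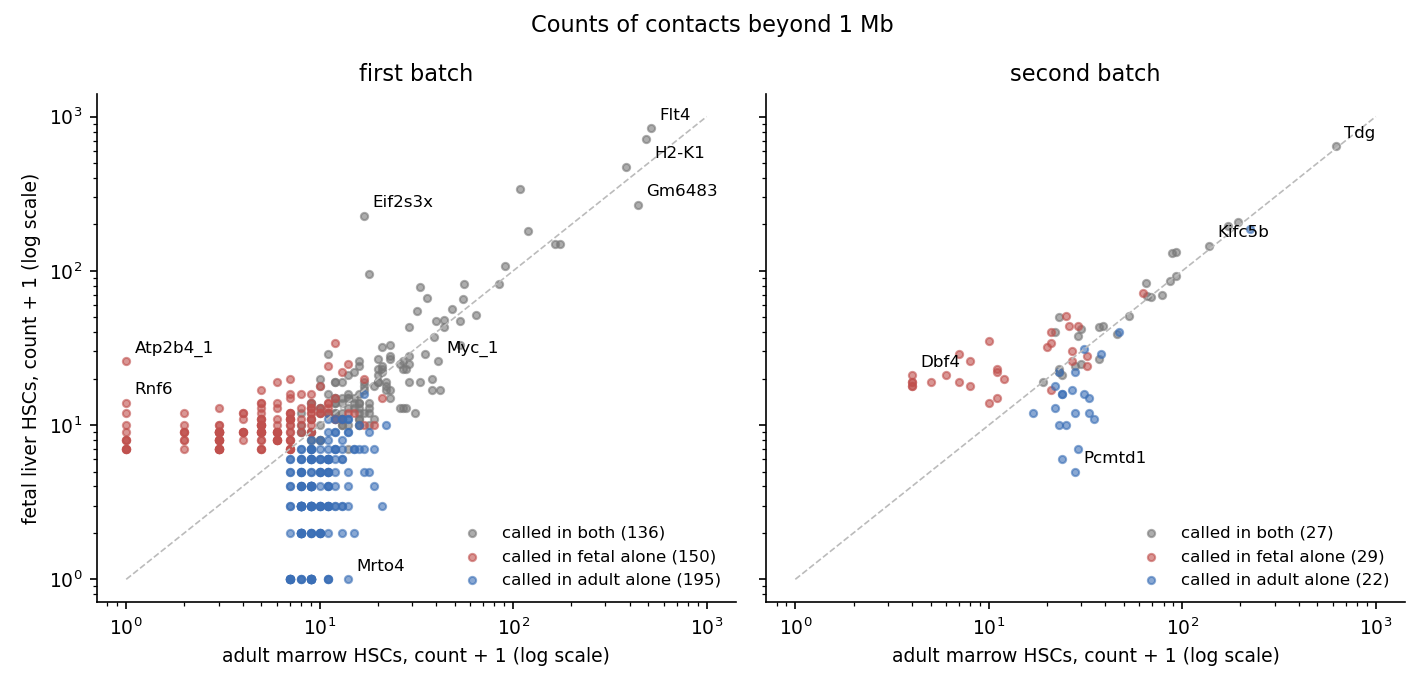
Fetal count (vertical axis) against adult count (horizontal axis) of each contact beyond 1 Mb, both plus 1 and on log scales, by batch and by the population of the call. The dashed line marks equal counts. Contacts called in 1 population sit at low counts in the first batch, while the highest counts there, such as 844 fetal and 512 adult for Flt4, belong to contacts called in both.

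Myc, a transcription factor that drives growth and division, had 50 contacts beyond 1 Mb, all but 1 of them in a single distal region. Enhancers far downstream of Myc are known to act in blood stem and progenitor cells. Its captured fragments were chr15:61818279-61819369 (Myc) and chr15:61816404-61817060 (Myc_1), in mm9 as all file coordinates here. The region, chr15:63424001-63604001, lay 1.61 to 1.79 Mb away and held 49 contacts in 34 bins. Of these 9 were called in fetal HSCs alone, 12 in adult HSCs alone and 28 in both, with 534 fetal and 624 adult counts in all. The remaining contact, of Myc_1 at 1.16 Mb on the other side, had 8 fetal and 3 adult counts.

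Within the region the bins formed a small group at chr15:63424001-63450001 and a larger one at chr15:63476001-63604001. The small group held 7 contacts in 6 bins with 59 fetal and 66 adult counts. The larger held 42 contacts in 28 bins with 475 and 558. Its highest bin, chr15:63480001-63482001, had 25 fetal and 40 adult counts from Myc_1 and 18 and 19 from Myc. The next bin gave 24 and 28 from Myc_1 and 14 and 14 from Myc. So the fragments, about 2 kb apart, peaked in the same bin. They are close neighbours on the same chromosome, and their counts are not independent measurements of the region.

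The Myc region carried enhancer marks: 18 of its 34 bins had the active enhancer annotation in either population, 16 had open chromatin and 13 had no mark. In the larger group 13 of 28 bins were active enhancers in either population and 11 in both. The fetal share of the summed counts was 46.1% (43.2 to 49.0%), below the even split. The population totals of listed counts were not used to scale it. The FPKM of Myc was 44.8 in fetal and 40.8 in adult HSCs, and that assigned to the Myc_1 fragment 37.1 and 35.2. In bulk RNA, fewer expressing cells and less RNA per cell cannot be told apart.

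**Figure D3:**
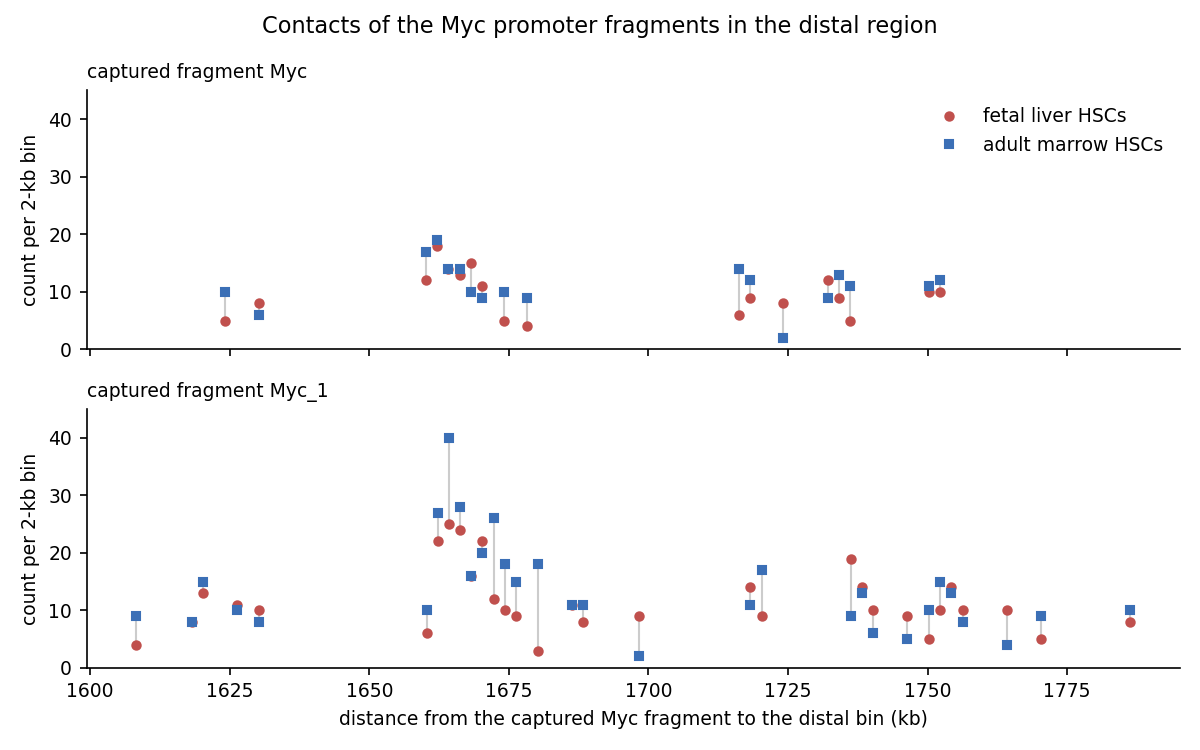
Counts per 2-kb bin (vertical axis) in fetal liver HSCs (red circles) and adult marrow HSCs (blue squares) against distance from the captured Myc fragment (horizontal axis, kb), for both fragments. Grey lines join the values of a bin. The highest bin, with 40 adult and 25 fetal counts, belongs to Myc_1, and bins with more fetal than adult counts are mixed with the opposite.

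Hoxa promoters. The Hoxa genes encode transcription factors that pattern the body axis, and Hoxa9 also promotes the growth of blood stem cells. The captured fragments Hoxa3_1, Hoxa7, Hoxa7_1, Hoxa7_2, Hoxa9, Hoxa9_2, Hoxa10 and Hoxa10_1 all met the region chr6:51114001-51164001, at most 1.07 Mb away. The region held 55 contacts in 17 bins, 12 called in fetal HSCs alone, 20 in adult HSCs alone and 23 in both, with 686 fetal and 743 adult counts. The bin chr6:51122001-51124001 was called for all 8 fragments, with 155 fetal and 155 adult counts in sum. A further fragment, Hoxa3, lies at chr6:52131971-52134121 on the side nearer to the region and had 0 listed contacts in it.

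The fragments differed in their counts. Hoxa9 had 138 fetal and 125 adult counts over 7 bins, with 5 of 7 called in both populations. Hoxa9_2 had 116 and 104 over 7 bins. Hoxa10 had 116 fetal and 167 adult counts over 10 bins, 4 of them called in adult HSCs alone and 0 in fetal HSCs alone. Hoxa10_1 had 60 and 89 over 7 bins, again with 4 in adult HSCs alone and 0 in fetal HSCs alone. Unscaled, both Hoxa10 fragments thus had the higher adult sum, and both Hoxa9 fragments the higher fetal sum. The fetal excess at the Hoxa9 fragments was smaller in proportion than that of all listed first-batch counts, 1312829 fetal and 1098957 adult. So the difference in direction between Hoxa9 and Hoxa10 depended on leaving the sums unscaled. The fragments lie close together and share bins, so their sums are not independent. Hoxa7 had 47 fetal and 34 adult counts, Hoxa7_2 47 and 39, Hoxa7_1 64 and 75, and Hoxa3_1 98 and 110.

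Expression of these genes was low to moderate in both populations. Hoxa9 had an FPKM of 17.8 in fetal and 24.5 in adult HSCs, and Hoxa10 3.02 and 4.65. The authors' deposited table marks Hoxa10 as differentially expressed and Hoxa9 as not. In the region 8 of 17 bins had open chromatin, 4 the active enhancer annotation, 5 the poised enhancer annotation and 1 the bivalent promoter annotation. The active enhancer annotation of the bin met by all 8 fragments was present in fetal HSCs and not in adult HSCs, while its chromatin was open in both. The bins to each side of it, chr6:51120001-51122001 and chr6:51124001-51126001, had 104 fetal and 115 adult counts from 7 fragments and 73 and 110 from 5.

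**Figure D4:**
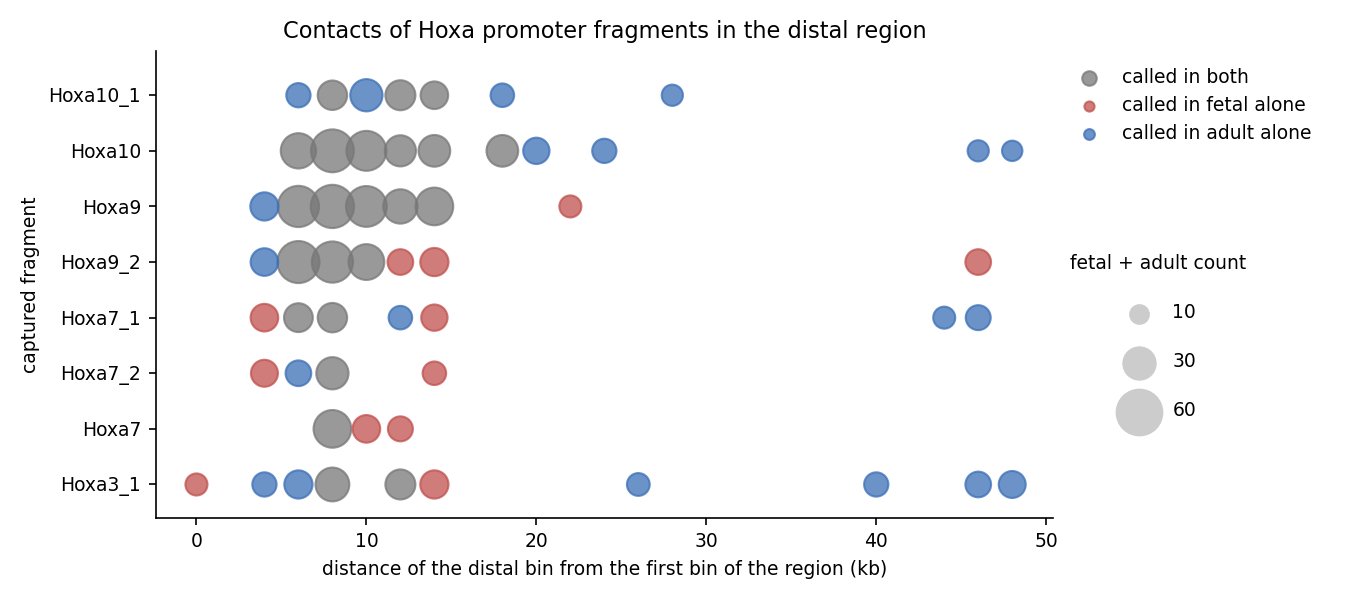
Contacts of 8 Hoxa fragments (rows, ordered along the chromosome) in their distal region (horizontal axis, kb from the first bin). Circle area is proportional to the fetal plus adult count, and colour gives the population of the call. All 8 rows have a circle at 8 kb, the bin met by every one of these fragments, and Hoxa10 and Hoxa10_1 have no circle called in fetal HSCs alone.

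Weakly expressed promoters and lists related to Polycomb. Igfbp3, which binds insulin-like growth factors outside cells, was hardly expressed, with an FPKM of 0.043 in fetal HSCs and 0 in adult HSCs. It had 16 contacts at chr11:8118001-8310001, 1.01 to 1.20 Mb away, with 102 fetal and 108 adult counts, 7 called in fetal HSCs alone, 6 in adult HSCs alone and 3 in both. No bin had more than 10 fetal or 11 adult counts, and 12 of the 16 bins carried no mark. Calls in both populations were thus 3 of 16 for Igfbp3, beside 28 of 49 in the Myc region and 23 of 55 in that of Hoxa. They were 136 of 481 over first-batch contacts beyond 1 Mb and 25.3% over all within a chromosome. The Myc and Hoxa shares lay above both of these and the Igfbp3 share below, differences that were not tested.

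Flt4, the receptor for lymphatic vessel growth factors, was also weakly expressed, at an FPKM of 0.318 in fetal and 0.0851 in adult HSCs. It met 5 adjoining bins at chr11:51976001-51986001, 2.55 to 2.56 Mb away, all called in both populations. The bin chr11:51980001-51982001 had 844 fetal and 512 adult counts, the highest fetal count among the 559, and the next bin had 336 and 107. Both bins carry the bivalent promoter annotation in both populations. The other 3 bins had 12 to 23 fetal and 15 to 19 adult counts. Over the 5 bins the fetal share of counts was 64.9% (62.7 to 67.0%), and the fetal excess lay in those bivalent bins. At 20 kb to 1 Mb Flt4 had only 1 listed contact, with 3 fetal and 8 adult counts. Neither a part of Polycomb nor a part of shared reads was tested.

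Bivalent bins were rare. They made up 4 of 481 contacts in the first batch (0.832%, 0.227 to 2.12%), against 1.80% at 20 kb to 1 Mb. Second-batch bins were bivalent in 0 of 78, which allows up to 4.62% by the exact upper bound, against 1.71%. Beside the pair of Flt4, the other 2 were a bin of Ankrd32_1, with 2 fetal and 8 adult counts, and a bin of Hoxa7_1. Poised enhancer bins were 14 contacts in the first batch (2.91%) and 0 in the second. Of the 14, 11 belonged to Hoxa fragments, which met the same 5 poised bins repeatedly. All 14 carried the mark in fetal HSCs and 0 in adult HSCs. This split was not set beside that of nearer bins, so it is not read as particular to these contacts.

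Gata3, a regulator of T cells and other lymphocytes, had 5 contacts from its fragments Gata3 and Gata3_1 at chr2:8598001-8680001, at 1.12 to 1.21 Mb, 4 called in fetal HSCs alone and 1 in adult HSCs alone. Its counts were between 6 and 9 in fetal and between 1 and 8 in adult HSCs, 39 and 25 in all. The FPKM of the Gata3 fragment, marked as differentially expressed, was 0.798 in fetal and 1.85 in adult HSCs. That of Gata3_1, not so marked, was 1.34 and 1.93. A list of developmental transcription factors that Polycomb is known to hold in many cell types was made by the start of the gene symbol. The match also took in genes such as Bmp1, Bmpr2 and Foxred2, which are not transcription factors. The first batch had 37 listed promoters, and 11 had a contact beyond 1 Mb (29.7%, 15.9 to 47.0%). Over all its promoters the share was 9.84%. All 11 were of Hoxa genes, Gata3 or Tbx3, and 8 were Hoxa fragments that met the same region. By gene it was 6 of 23, beside 176 of 1572 genes of that batch. Of 15 listed promoters in the second batch, 0 had such a contact, beside 2.68%. Of 21 promoters of Polycomb components in the first batch 0 did. The only one of 4 in the second was Phf1, which binds to the Polycomb complex that writes the mark. Of captured promoters on a list of loop and domain factors, 0 of 7 and 0 of 2 did, which allows up to 41.0% and 84.2%. The gene of CTCF, on that list, was not among those captured. Of 56 promoters of HSC regulators in the first batch 4 did (7.14%), those of Myc and Hoxa9, and of 5 in the second 0 did.

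Distal bins at active promoters. Beyond 1 Mb, distal bins were more often open and more often active promoters than all bins at 20 kb to 1 Mb, most of which lay under 500 kb. Against the adjoining 500 kb to 1 Mb alone this was so only for open chromatin in the first batch, at 59.7% there. Active promoters made up 23.7% (first batch) and 45.6% (second batch) of the bins at 500 kb to 1 Mb, and second-batch open bins 78.6%, all above the values beyond 1 Mb. Open chromatin was present in either population at 68.4% in the first batch (64.0 to 72.5%), against 56.9% at 20 kb to 1 Mb and 54.4% for the same promoters. The second-batch value was 66.7% (55.1 to 76.9%), against 60.1%. The active promoter annotation was present at 21.4% of first-batch bins (17.8 to 25.4%) against 16.4%, and at 38.5% of second-batch bins (27.7 to 50.2%) against 18.95%. Active enhancer bins made up 18.1% (14.7 to 21.8%) against 16.0%, and 10.3% (4.53 to 19.2%) against 16.4%. Bins with no mark were 28.5% against 39.4% (first batch) and 33.3% against 36.5% (second batch).

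The marks depended on which promoters and which distances were counted. Without the Myc, Hoxa, Sp110, Sp140, Hmgn1 and Igfbp3 promoters, active enhancers in the first batch made up 9.57% of bins and active promoters 33.7%. The enhancer share was thus higher, and the promoter share lower, with those promoters counted. At 1 to 3 Mb in the second batch, 58.7% of 46 bins were active promoters and 84.8% were open. Beyond 3 Mb the bins had fewer marks. Open chromatin was at 50% of 46 bins in the first batch and 40.6% of 32 in the second, and no mark of any kind at 47.8% and 59.4%. Of those 32, the promoters Phf1, Kifc5b and Kifc1, described below beside bins of very high counts, gave 6, 5 and 4. Open chromatin was at 3, 1 and 0 of these, and no mark at 3, 4 and 4. The second-batch shares without these promoters were not computed.

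**Figure D5:**
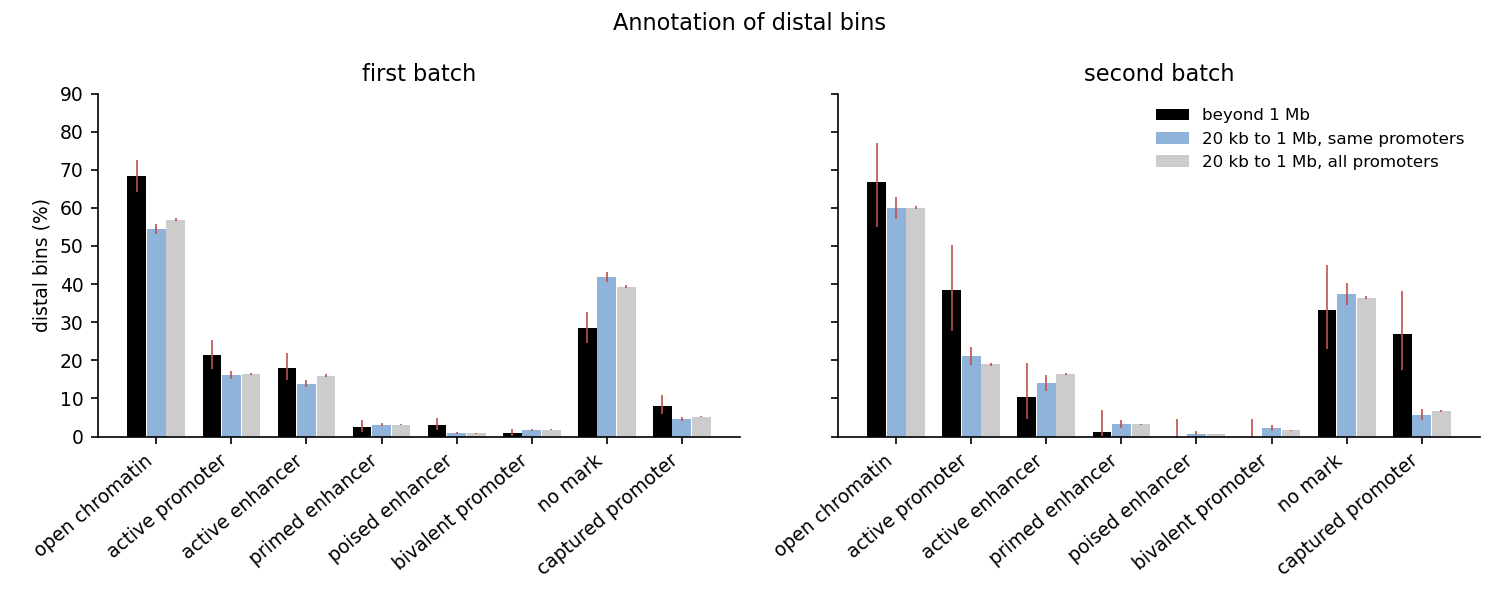
Share of distal bins (vertical axis, %) with each annotation in either population, for contacts beyond 1 Mb (black), contacts at 20 kb to 1 Mb of the same promoters (blue) and of all promoters (grey), by batch, with exact 95% intervals in red. Open chromatin stands at 68.4% and 66.7% beyond 1 Mb, active promoters at 21.4% and 38.5%, and bins that hold a captured promoter of another gene at 8.11% and 26.9%.

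Promoter to promoter. In 60 contacts, of 55 promoters, the distal bin overlapped a captured promoter of another gene. That is 8.11% of contacts in the first batch (5.83 to 10.9%), against 5.23% nearer, and 26.9% in the second (17.5 to 38.2%), against 6.78%. At 500 kb to 1 Mb alone the shares were 8.78% and 27.0%, within those intervals. In the first batch 9 of the 39 were called in fetal HSCs alone, 23 in adult HSCs alone and 7 in both. In the second, 10, 7 and 4 of 21 were. The reverse contact, from the distal promoter back, was listed for 29 of the 60, in 15 gene pairs. Where both promoters were captured in the same batch it was listed for 15 of 28 in the first batch (53.6%) and 12 of 19 in the second (63.2%), against 76.7% and 85.0% nearer. The same ligation products can be captured from either end, so the ends are not independent.

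Pairs with values from both ends leaned either way. Glrx3, an iron-handling glutaredoxin, and Ppp2r2d, a subunit of protein phosphatase 2A, lie 1.41 Mb apart. Glrx3 gave 49 fetal and 22 adult counts and Ppp2r2d gave 39 and 21. Shpk, a sugar kinase, and 1300001I01Rik, 1.45 Mb apart, gave 25 and 7 from Shpk and 28 and 6 from the reverse. From both ends of both pairs the fetal count was the higher. Zfp444, a zinc finger protein, and Epn1, an endocytosis adaptor, 1.09 Mb apart, gave 15 and 30 from Zfp444 and 11 and 27 from Epn1. Tcea1_1 (a transcription elongation factor) and Rb1cc1_1 (an autophagy factor), 1.36 Mb apart, gave 4 and 10, and 2 and 9. These had the higher adult count from both ends.

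Kdsr, a sphingolipid enzyme, and 2310035C23Rik gave 22 and 22, and 20 and 23, with all 4 counts close. The call was the same at both ends for 18 of the 29 contacts with a reverse, and it was fetal alone at one end and adult alone at the other for 5. One such pair was the peptidase gene Erap1 and the sulfatase gene Arsk. Erap1 gave 15 fetal and 23 adult counts and was called in adult HSCs alone, and Arsk gave 16 and 20 and was called in fetal HSCs alone. Both ends thus had the higher adult count, yet their calls were opposite.

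Skp2, which marks cell cycle inhibitors for destruction, met the shared bin of Rad1 (a DNA damage clamp) and Brix1 (ribosome assembly), 1.34 Mb away, with 15 fetal and 16 adult counts. H2-K1, a class I histocompatibility gene, met H2-Q4, of the same family, with 711 fetal and 487 adult counts at 1.38 Mb, and the reverse gave 16 and 41. The directions of the 2 ends differed, and the windows of these genes share the 30-base run given above. The part of shared reads was not tested. Promoters without a listed reverse included Pcmtd1, which met Rrs1 at 2.46 Mb with 4 fetal and 27 adult counts and Arfgef1 at 3.14 Mb with 18 and 3. The same promoter thus had opposite leanings at Rrs1 and at Arfgef1, each from a single contact.

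Similar copies and very high counts. Beside the 559, 11 contacts of 9 promoters beyond 1 Mb were at or over 1000 counts in a population, and all 11 were called in both. Of the 559, 75 lay within 100 kb of such a bin: 56 in the first batch, 25 fetal alone, 6 adult alone and 25 both, and 19 in the second, 4, 2 and 13. The 19 held 50.1% of the fetal and 48.3% of the adult counts beyond 1 Mb in the second batch. Away from these bins the first batch had 125 contacts called in fetal HSCs alone and 189 in adult HSCs alone, a fetal share of 39.8%.

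Kifc1 and Kifc5b encode closely related kinesins, motor proteins of the spindle, and their start windows are the near-identical ones printed above. Kifc5b met a bin that holds the Kifc1 fragment at 6.97 Mb with 13357 fetal and 10804 adult counts, outside the limit on counts. The 5 Kifc5b contacts inside the limit lay at chr17:34014001-34030001 around it, with 43 to 145 fetal and 38 to 137 adult counts, all called in both. Phf1, whose captured fragment lies close to that of Kifc5b, met the same region in 6 bins with 21 to 193 fetal and 20 to 171 adult counts. From the other end, Kifc1 had 4 contacts with 33 to 83 fetal and 20 to 68 adult counts. Outside the limit it had a bin with 1175 and 1009. Whether reads were shared between the copies was not tested.

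Sp110, Sp140 and Sp100 encode nuclear body proteins of the interferon response and lie in a family of similar copies. Their region chr1:84988001-85328001, at 2.17 to 2.51 Mb, held 40 contacts in 37 bins, 12 called in fetal HSCs alone, 5 in adult HSCs alone and 23 in both, with 1792 fetal and 1601 adult counts. Sp110 alone had 36 of them. The active enhancer and active promoter annotations were at 0 of the 37 bins, 21 were open, and 16 had no mark at all. Bins of Sp110 outside the count limit had 13038 fetal and 5590 adult counts, and 4691 and 7998, so bins of the same promoter leaned opposite ways.

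Hmgn1, a nucleosome-binding protein, had 18 contacts at chr16:93690001-93816001, at 2.54 to 2.66 Mb, and 0 listed contacts at 20 kb to 1 Mb. The calls were 14 in fetal HSCs alone, 0 in adult HSCs alone and 4 in both, but the counts were 285 fetal and 307 adult. The calls and the counts thus leaned opposite ways. Outside the limit, a bin in the same region had 12192 fetal and 7418 adult counts, and the bin adjoining it 1239 and 1717. These bins too leaned opposite ways. Qtrt1, a tRNA-modifying enzyme, met 3 adjoining bins at 102.6 Mb, chr9:123836001-123842001, with 28 to 43 fetal and 28 to 45 adult counts. The first of these is the bin where Cdkn2d, an inhibitor of cell cycle kinases, had 5631 fetal and 4404 adult counts. Tdg, a DNA repair glycosylase, had 645 and 622 at 40.3 Mb, in a bin that adjoins one of its own with 16100 and 12953.

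Promoters of gene families in clusters of similar copies had a contact beyond 1 Mb in 16 of 105 cases in the first batch (15.2%, 8.97 to 23.6%) and 5 of 90 in the second (5.56%, 1.83 to 12.5%), beside 9.84% and 2.68% of all promoters. They included 5 genes of zinc finger proteins in the first batch (Zfp58, Zfp69, Zfp788, Zfp820 and Zfp945), the histocompatibility genes above and Gm6483. The match by name took in Klraq1, which is not of the family its prefix matched. It left out the promoters of Sp100, Sp110, Sp140, Kifc1 and Kifc5b described above, so the shares do not count them. Gm6483 met a bin at 52.4 Mb with 267 fetal and 439 adult counts and no mark.

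Largest ratios of fetal to adult counts. Among contacts with at least 10 counts in a population, ranked by the log2 ratio after adding 1 to each count, the largest fetal ratio in the first batch was that of Atp2b4_1, a calcium pump gene, with 25 fetal and 0 adult counts at 94.9 Mb. The authors' deposited table marks this gene as differentially expressed, and its FPKM was lower in fetal HSCs, at 5.76 against 18.3. Rnf6, a ubiquitin ligase, followed with 13 and 0 at 1.04 Mb, in an active promoter bin. All 4 contacts of Rnf6, the farthest at 1.07 Mb, were called in fetal HSCs alone, with 34 fetal and 10 adult counts (77.3% fetal, 62.2 to 88.5%). Its FPKM too was lower in fetal HSCs, at 4.68 against 9.97. Eif2s3x, a translation initiation factor on the X chromosome, had 227 and 16 at 59.8 Mb in a bin with no mark. Acap1_1 had 11 and 0 at 29.0 Mb, and Mrps18c 11 and 1 at 49.1 Mb.

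On the adult side, Mrto4, a ribosome assembly factor, had 0 fetal and 13 adult counts at 10.4 Mb. Aim2, a sensor of DNA in the cytosol, had 0 and 10 at 1.07 Mb, and its FPKM was 3.67 in fetal and 11.1 in adult HSCs. Eltd1 had 0 and 10 at 4.63 Mb, in a bin that holds the captured promoter Prkacb_1, and Sec23b, a vesicle coat protein, 0 and 10 at 1.95 Mb. Rpl37a, of the large ribosomal subunit, had 4 contacts at chr1:73870001-73910001, all in adult HSCs alone, with 12 fetal and 50 adult counts (19.4% fetal, 10.4 to 31.4%). Its FPKM was 311 in fetal and 297 in adult HSCs. These promoters were picked for their largest ratios, so the lean in counts was set by the choice. The intervals for Rnf6 and Rpl37a do not allow for that choice. FPKM had the same lean as the counts at Aim2, Eif2s3x (44.5 fetal and 34.2 adult), Mrps18c (12.5 and 10.2) and Eltd1 (20.1 and 24.8). It had the opposite lean at Atp2b4_1, Rnf6, Acap1_1 (19.3 and 34.8) and Mrto4 (34.8 and 17.5). It was nearly equal at Sec23b (16.7 and 16.3) and Rpl37a. Of these, Aim2 and the promoters with the opposite lean are marked as differentially expressed.

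In the second batch the largest fetal ratio was that of Dbf4, which activates the kinase that fires replication origins, with 20 and 3 at 2.86 Mb. It met the captured promoter of Gtpbp10. Pcmtd1 (18 and 3, given above) and Lin7c (18 and 3 at 1.09 Mb) came next. The largest adult ratio was that of the other contact of Pcmtd1, with 4 and 27. Zfp141 had 6 and 28 at 2.99 Mb and 17 and 3 at 1.02 Mb, and Nudt21, of the messenger RNA 3′ end machinery, 5 and 23 at 1.77 Mb. Pitrm1, a mitochondrial peptidase, had 4 contacts at 1.78 to 1.94 Mb called in adult HSCs alone, with 9 to 15 fetal and 23 to 34 adult counts. Its remaining contact, at 2.94 Mb with 23 and 31, was called in fetal HSCs alone although its adult count was the higher.

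Expression. Promoters with a contact beyond 1 Mb had FPKM close to those of the others. In the first batch their median FPKM was 8.07 in fetal and 10.2 in adult HSCs, beside 8.65 and 10.1 for promoters without one. The share with an FPKM of at least 1 was 87.5% beside 87.0% in fetal HSCs, and 91.7% (86.8 to 95.2%) beside 88.4% in adult HSCs. Second-batch medians were 3.01 and 4.09, beside 2.79 and 3.52, and the shares 85.7% beside 77.5% and 93.9% beside 91.3%. The authors' deposited table marks 57 of 192 as differentially expressed in the first batch (29.7%, 23.3 to 36.7%), beside 36.1% of the others, and all promoters of the second batch.

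The calls were also set against the direction of expression. At differentially expressed genes with the higher fetal FPKM, 22 of 42 first-batch contacts called in 1 population were fetal (52.4%, 36.4 to 68.0%). At those with the higher adult FPKM 25 of 57 were (43.9%, 30.7 to 57.6%). Second-batch shares were 16 of 28 (57.1%) and 13 of 23 (56.5%). The intervals overlap in both batches.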

How the data were processed

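The deposited table of significant contacts was used, with 1 row per captured promoter fragment and 2-kb distal bin, and 0 columns of values were left unassigned. Per the submitters' processing notes the tools include Trim Galore 0.41 and Bowtie2 2.2.2 and the build is mm9, with roles not given in the sources used here. The authors deposited whole-number counts per contact, pooled over the 2 libraries of a population and batch (sum or mean is not given in the sources used here). The authors also deposited scores that behave as −log10 of a p-value and are 0 where a contact was not called, FPKM per promoter, 0 or 1 marks per bin, and a mark of differential expression. How these were made is not given in the sources used here.

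Scores above 0 were taken as calls, per population. Contacts between chromosomes were left out. A captured lineage marker is not reported here. Shares, medians and overlaps were computed with pandas 2.3.3 and SciPy 1.17.1 under Python 3.11.15, and the functions were tested on simulated data. Log2 ratios use a pseudocount of 1. No model was fitted and no test run, since no value per library was used, so no replicate or batch term was possible; batches were kept apart. Nothing says whether the libraries of a group came from separate animals.

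Members, lists and named promoters were chosen with earlier results of these data known. Named promoters were, per batch, the 10 with the most contacts, the 10 longest and 10 highest-count contacts, the 5 largest ratios in each direction among contacts of at least 10 counts, the 10 best-scoring contacts with captured promoters, and members of the lists; further ones were named as examples after their values were seen. Alternatives comprised distance limits of 500 kb and 2 Mb, limits on counts, a score 1 unit higher, merged bins, promoters left out, 1 contact per promoter, pseudocounts, scaling by listed totals, neighbour windows and FPKM thresholds.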

Additional observations from a re-analysis of the deposited data

How the results depend on the processing

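All values below are for contacts beyond the limit, by batch, and the cause of each change was not tested. With a limit of 2 Mb there were 134 and 38 contacts. In the first batch the fetal share of contacts called in 1 population then lay on the other side of an even split, at 57.1% (41.5% without the Sp100, Sp110, Sp140 and Hmgn1 promoters, left out after seeing the data), the median log2 ratio was −0.034, 37.3% were called in both populations, 5.22% of bins held a captured promoter, 5.22% were active enhancers, 14.2% active promoters, 61.2% open and 37.3% unmarked. In the second batch 21.1% were active promoters, 50% open and 50% unmarked, and 63.2% had a neighbour within 5 kb. With a limit of 500 kb there were 2612 and 560 contacts, and the first-batch fetal share (54.7%) and median log2 ratio (0.16) changed direction. Calls in both populations were then 16.0% and 22.5%, open bins 61.3% and 77.0%, unmarked bins 36.1% and 21.8%, and in the first batch active enhancers 13.2% and neighbours 38.1%.

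With a score 1 unit higher the first batch had 225 contacts, a fetal share of 48.9%, 38.2% called in both, 24% active enhancers, 17.3% active promoters and 60.4% with a neighbour. With 1 contact per promoter there were 192 and 49 contacts and neighbours for 16.7% and 20.4%, and in the first batch 14.1% captured promoters, 11.5% active enhancers, 34.9% active promoters and 72.9% open bins. Without the 3 promoters with the most contacts, 23.5% were called in both, 25.8% were active promoters and 35.7% had a neighbour in the first batch. With bins up to 5 kb apart merged, which gives no neighbour value, the first batch had 11.96% captured promoters, 14.1% active enhancers and 30.4% active promoters, and the second 78.7% open and 21.3% unmarked bins.

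Scaled by the totals of listed counts within a chromosome, the median log2 ratios were −0.42 and −0.12. Captured fragments within 5 kb of the bin were found for 39.7% in the second batch. First-batch neighbours were 35.8% for adjoining bins alone, 53.0% within 20 kb and 61.1% within 100 kb. Chosen after seeing the data, leaving out the Myc, Hoxa, Sp110, Sp140, Hmgn1 and Igfbp3 promoters left 303 first-batch contacts, with a median log2 ratio of −0.36, 18.2% called in both, 12.9% captured promoters, 9.57% active enhancers, 33.7% active promoters, 72.9% open bins and 21.5% with a neighbour. Also chosen after seeing the data, leaving out contacts within 100 kb of a bin of 1000 counts or more gave 23.7% called in both in the second batch, and neighbours of 39.5% and 16.9%. Neither the limits on counts nor the pseudocounts moved any of these results beyond its interval. With FPKM thresholds from 0.1 to 5 the expressed share of first-batch promoters ran from 96.9% to 64.1% in fetal HSCs. No paired analysis was possible because the counts are pooled per population and batch and the columns carry no replicate numbers. The median first-batch count of 8 per population limits what single contacts can show.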
